A study of Mus musculus with 8 samples.

Results

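Amino acids enter and leave cells and lysosomes through membrane carriers, and 34 genes of such carriers were followed here in mouse pancreatic islets, out of 55414 genes in the count tables. They were chosen by symbol from the SLC1, SLC3, SLC6, SLC7, SLC16, SLC36, SLC38 and SLC43 families, and every symbol matched 1 Ensembl gene. By the amino acids they are known to carry, 6 were placed with cationic, 21 with neutral and 3 with anionic substrates. The remaining 4 are the heavy chain Slc3a2 and 3 genes whose substrate is not an amino acid or is unsettled (Slc38a10, Slc38a11 and Slc43a3). Slc3a1 is also a heavy chain, but it was placed in the cationic class by the substrates of the carrier it belongs to. In all 8 libraries of islet RNA came from C57BL/6 mice at 5 weeks of age. The 4 TG-labelled libraries have the genotype Ins2 cre(+/-) ATF4 TG(+/-), and the 4 WT-labelled libraries Ins2 cre(-/-) ATF4 TG(+/-). The ATF4 transgene is thus present in both groups in the heterozygous state, and Cre under the name Ins2, after a mouse insulin gene active in beta cells, is present in the TG-labelled group alone. Nothing in the labels tells single animals from pools or repeat libraries, so p-values measure the spread between these samples, which may be technical.

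Cells take up arginine and lysine through the CAT carriers, and large neutral amino acids through light chains of the SLC7 family that are bound to the heavy chain encoded by Slc3a2. Small neutral amino acids and glutamine enter with sodium through the SNAT carriers of the SLC38 family and through the ASC carriers of the SLC1 family, while other SLC1 members take up glutamate and aspartate. ATF4 is the transcription factor of the integrated stress response, and carrier genes such as Slc7a5, Slc3a2 and Slc7a11 are among its known targets. In beta cells arginine depolarises the membrane as it enters, and leucine and glutamine feed insulin secretion.

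The libraries held between 16521087 and 22499999 gene counts. Values are CPM, counts scaled to a common library total after TMM correction of the library sizes. Ins2 averaged 33580 ± 2956 CPM in the TG-labelled libraries and 69622 ± 9106 CPM in the WT-labelled libraries (SD, n = 4 each), and Gcg 33851 ± 8360 CPM and 25332 ± 6827 CPM, so both sets of libraries carried islet hormone transcripts. Counts of the endogenous Atf4 gene were lower in the TG-labelled libraries (261 ± 19.8 CPM against 352 ± 21.1 CPM, SD, n = 4 each), and whether transgene transcripts are counted under Atf4 is not known, so directions are given for libraries as labelled. Marker transcripts of other cell types also moved with the labels. The summed level of 12 endothelial markers ran from 1340 to 1368 CPM in the TG-labelled libraries and from 551 to 955 CPM in the WT-labelled libraries. For 12 stromal and mural markers the ranges were 3406 to 6583 CPM and 863 to 2838 CPM, for 13 macrophage markers 215 to 513 CPM and 118 to 192 CPM, and for 7 ductal markers 758 to 1037 CPM and 374 to 428 CPM. All 12 endothelial markers were called higher, as were 8 stromal and mural, 9 macrophage and 5 ductal markers, beside 12.1% of all tested genes. The lowest log2 fold changes in the macrophage and ductal lists were −0.05 and −0.04. The 10 beta-cell markers together ran from 50093 to 64198 CPM in the TG-labelled libraries and from 103120 to 123756 CPM in the WT-labelled libraries. All 10 were called lower, beside 8.06% of all tested genes. Acinar markers overlapped between the groups, but TG replicate 1 reached 48250 CPM while the other 7 libraries lay between 1489 and 15037 CPM. In bulk islets, fewer cells of a type and less RNA per cell cannot be told apart.

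**Figure D1:**
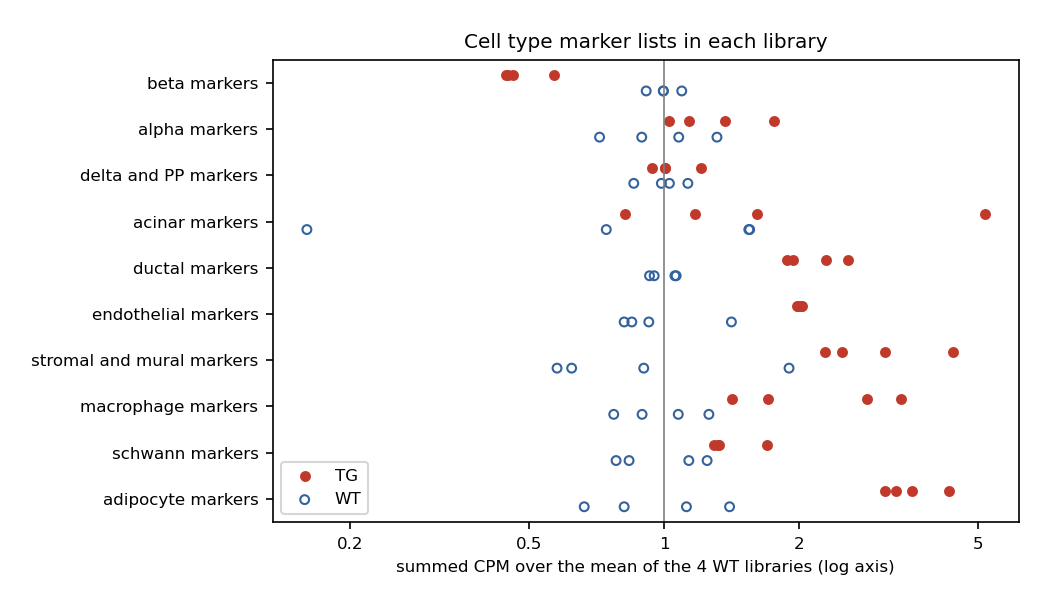
Summed CPM of each cell type marker list in the 8 libraries, divided by the mean of the 4 WT-labelled libraries, on a log axis with 1 point per library. Beta-cell markers of the TG-labelled libraries lie below those of every WT-labelled library, whereas endothelial, stromal, macrophage and ductal markers lie above them. Of the 4 adipocyte markers, 3 average under 1 CPM.

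Of the 33 carriers with enough counts to test, 16 were higher and 4 lower in the TG-labelled libraries at a threshold of 0.05 on the adjusted p (edgeR's quasi-likelihood test, two-sided, Benjamini-Hochberg over 20509 genes). Among all tested genes 20.1% were called, 12.1% higher and 8.06% lower. A call together with a rise of at least 2-fold was found for 11 carriers, where 6.41% of all tested genes met that rule, and 0 carriers were called with a fall of at least 2-fold, where 1.46% did. The 4 TG-labelled libraries lay above all 4 WT-labelled libraries for 16 carriers (12.6% of all tested genes) and below them for 3 (9.94%). The median log2 fold change of the tested carriers was 0.49, against −0.00186 over all tested genes. Because the carriers were chosen with earlier results of these data known, their distance from these shares is a description and not a test. Only Slc7a10, the carrier of small neutral amino acids called Asc-1, missed the filter on low counts, with between 0 and 10 counts in the TG-labelled libraries and between 0 and 12 counts in the WT-labelled libraries. Of the 33 carriers that passed, 32 reached the minimum of the filter in all 4 libraries of each group.

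These counts depend on how other cell types are treated. With the mean level of the endothelial and stromal markers as a covariate, 4 carriers were called higher (Slc7a3, Slc7a1, Slc7a5 and Slc1a4) and 0 lower, where 0.605% and 0.868% of all tested genes were called, and 9 carriers had an unadjusted p under 0.05. With the macrophage markers as a covariate, Slc7a3, Slc7a1 and Slc1a4 were called higher and 0 carriers lower (0.497% and 0.639% of all tested genes). In that fit 12 carriers had an unadjusted p under 0.05. The share of all tested genes under this unadjusted threshold was not counted, so the 9 and 12 carriers have no background beside them. These covariates differ between the groups themselves, and standard errors grew by a median factor of 2.22 and 2.15 over genes. With the acinar markers as a covariate, whose factor was 1.11, 14 carriers were called higher and 4 lower (9.35% and 6.14%). All 20 carriers called without a covariate kept their sign in all 3 fits, but some lay within their standard error of 0. With the macrophage covariate, Slc38a7 was 0.16 (SE 0.314) and Slc38a5 0.18 (SE 0.305). The share of all called genes that kept their sign was not counted. DESeq2 called 18 carriers higher and 4 lower, where it called 14.8% and 10.9% of the genes it tested. The part of other cell types in the remaining calls was not tested further.

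**Figure D2:**
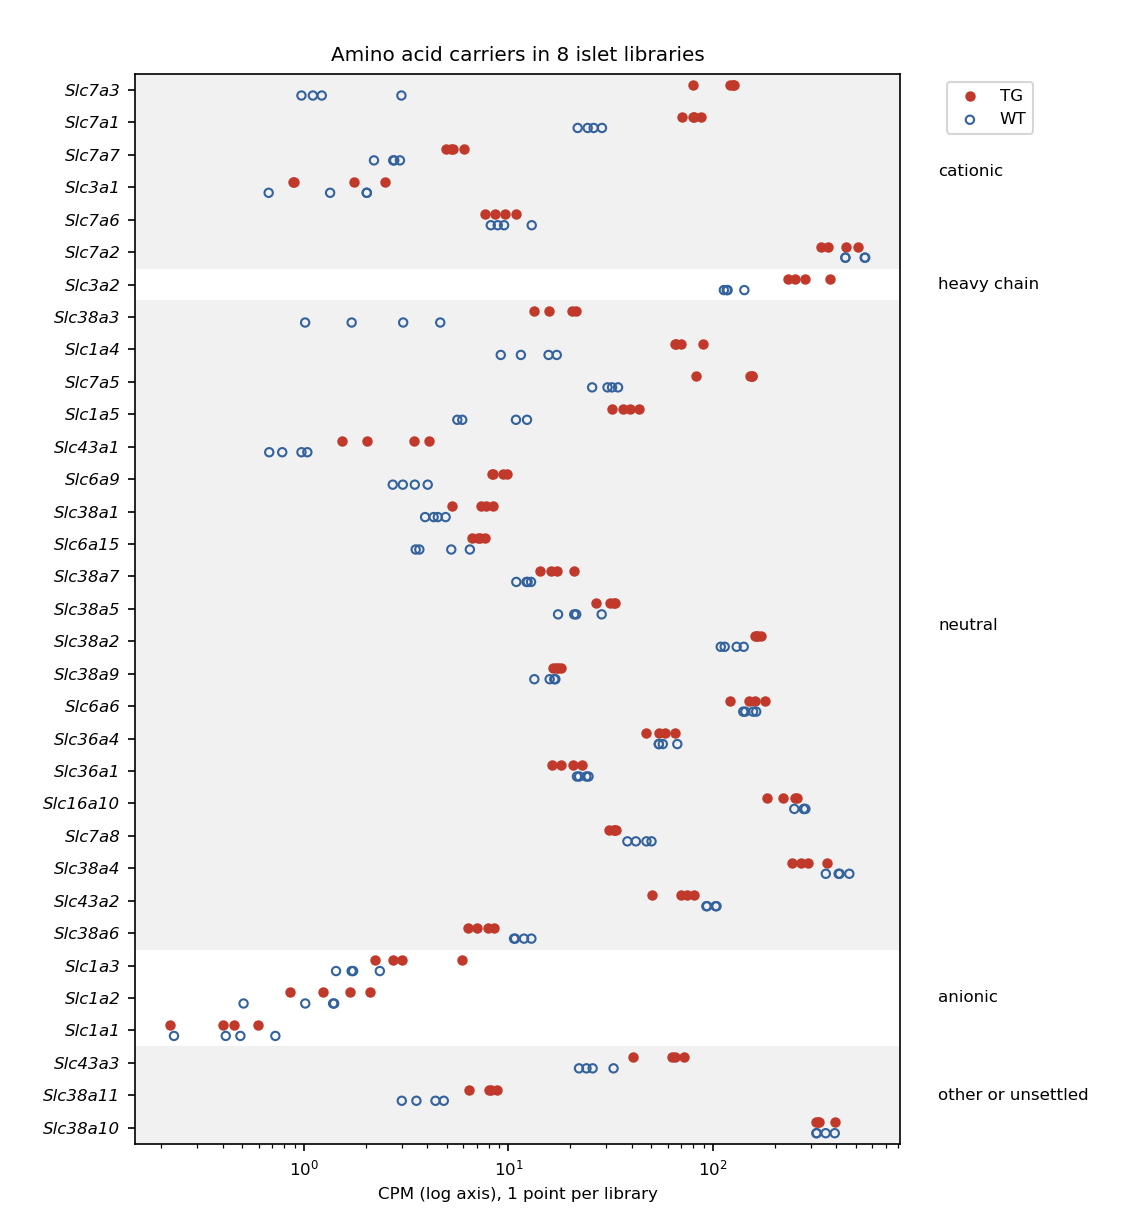
CPM of the 33 tested carriers on a log axis, with filled points for the 4 TG-labelled libraries above open points for the 4 WT-labelled libraries, grouped by substrate class. Slc7a3 shows the widest gap, with 80.2 to 126 CPM in the TG-labelled libraries and 0.972 to 2.995 CPM in the WT-labelled libraries, while the anionic carriers all lie under 6 CPM.

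Among the cationic carriers, Slc7a3, Slc7a1 and Slc7a7 rose and none of the 6 was called lower. Slc7a3 (ENSMUSG00000031297) encodes CAT3, an arginine and lysine carrier best known from the brain. It measured 80.2, 126, 126 and 122 CPM in TG replicates 1 to 4, against 2.995, 1.11, 0.972 and 1.22 CPM in WT replicates 1 to 4. The groups did not overlap, TG replicate 1 was the lowest of its group, and WT replicate 1 the highest of its own. The difference was 72.1-fold on the CPM scale, with a log2 fold change of 6.16 (SE 0.351, adjusted p = 1.47e-05). Raw counts behind the WT-labelled values were 62, 24, 21 and 20 reads, so Slc7a3 was low but above the limit of 3 reads in each of these libraries. Slc7a1 (ENSMUSG00000041313) encodes CAT1, the arginine carrier of most tissues, and measured 70.4, 81.0, 80.1 and 87.1 CPM in the TG-labelled libraries, against 26.1, 21.8, 24.4 and 28.7 CPM in the WT-labelled libraries. It rose 3.16-fold (log2 fold change 1.66, SE 0.106, adjusted p = 5.57e-08), with little spread inside either group.

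Slc7a2 (ENSMUSG00000031596), which encodes the third CAT carrier, did not follow them. Its levels were 336, 512, 446 and 364 CPM in the TG-labelled libraries and 555, 551, 444 and 444 CPM in the WT-labelled libraries, and the groups overlapped (log2 fold change −0.27, SE 0.13, adjusted p = 0.179). Slc7a2 was called lower in 3 of 20 alternative settings, with the largest fall (−0.55) when TG replicates 2 and 3 were left out. Per kilobase of exon, a scale on which levels of different genes can be set side by side, Slc7a2 stayed the highest of the CAT genes in both groups, at 45.4 ± 8.75 CPM per kilobase in the TG-labelled and 54.6 ± 6.91 CPM per kilobase in the WT-labelled libraries (SD, n = 4 each). Slc7a3 stood at 30.0 ± 5.88 and 0.416 ± 0.252 CPM per kilobase, and Slc7a1 at 6.91 ± 0.598 and 2.19 ± 0.250 CPM per kilobase, TG-labelled before WT-labelled. Slc7a3 therefore made up 36.3% ± 3.24 of the length-scaled CAT level in the TG-labelled libraries and 0.710% ± 0.360 in the WT-labelled libraries, and Slc7a2 55.1% ± 3.63 and 95.4% ± 0.820 (SD, n = 4 each). Exon lengths are unions over annotated transcripts, so genes with long or alternative ends read lower on this scale than the transcripts present may warrant.

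**Figure D3:**
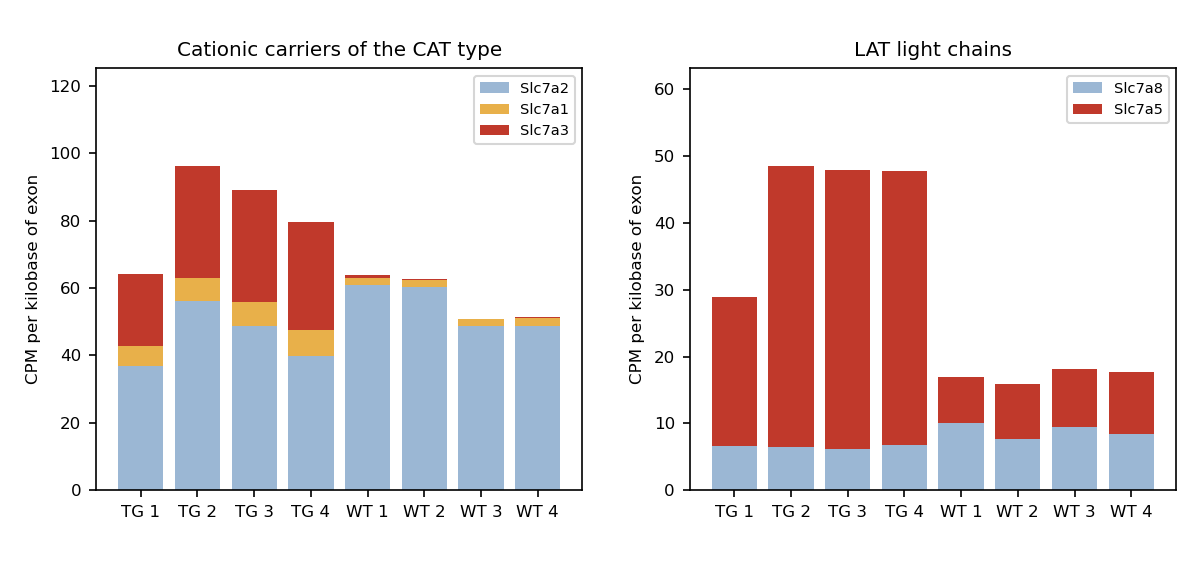
Length-scaled levels (CPM per kilobase of exon, stacked) of the CAT genes Slc7a2, Slc7a1 and Slc7a3, left, and of the LAT genes Slc7a8 and Slc7a5, right, in each library. Slc7a3 fills 33.1% to 40.4% of the CAT bar in the TG-labelled libraries and at most 1.24% in the WT-labelled libraries, and Slc7a5 fills 77.2% to 87.1% and 40.9% to 52.5% of the LAT bar.

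The exchangers of cationic for neutral amino acids differed from each other. Slc7a7 (ENSMUSG00000000958), which encodes the exchanger y+LAT1 of gut, kidney and macrophages, measured 5.34, 5.25, 6.05 and 4.96 CPM in the TG-labelled libraries and 2.95, 2.76, 2.73 and 2.20 CPM in the WT-labelled libraries. It rose 2.03-fold without overlap (log2 fold change 1.017, SE 0.218, adjusted p = 0.00402). TG replicates 2 and 3, which had the most macrophage transcripts (513 and 431 CPM), measured 5.25 and 6.05 CPM of Slc7a7, and the other TG-labelled libraries were close to them. The call was lost with the macrophage covariate (0.78, adjusted p = 0.587), with the endothelial and stromal covariate (0.85, adjusted p = 0.636) and with TG replicates 2 and 3 left out (0.91, adjusted p = 0.0767). The part of macrophages in Slc7a7 was not tested. Its relative Slc7a6 (y+LAT2) lay between 7.69 and 10.9 CPM in the TG-labelled libraries and between 8.19 and 12.99 CPM in the WT-labelled libraries, with a log2 fold change of −0.10 (adjusted p = 0.77). Slc3a1, the heavy chain of the kidney carrier of cystine and basic amino acids, did not exceed 2.48 CPM in any library (−0.03, SE 0.445, adjusted p = 0.974).

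The heavy chain Slc3a2 and the light chain Slc7a5, which together form the leucine carrier LAT1, rose, whereas the light chain Slc7a8 fell. Slc3a2 (ENSMUSG00000010095) measured 233, 372, 283 and 250.3 CPM in the TG-labelled libraries, against 118, 113, 142 and 117 CPM in the WT-labelled libraries, 2.32-fold higher without overlap (log2 fold change 1.22, SE 0.134, adjusted p = 3.74e-05). Slc7a5 (ENSMUSG00000040010) measured 82.7, 156, 155 and 153 CPM against 25.7, 30.5, 32.1 and 34.3 CPM, TG-labelled before WT-labelled. It rose 4.45-fold (2.16, SE 0.199, adjusted p = 6.67e-05), and TG replicate 1 lay well under the other 3 TG-labelled libraries but above every WT-labelled one. Slc7a8 (ENSMUSG00000022180), the light chain of LAT2, which takes a broad range of neutral amino acids, measured 33.0, 32.7, 30.9 and 33.5 CPM in the TG-labelled libraries and 50.05, 38.1, 47.3 and 42.0 CPM in the WT-labelled libraries. This was lower in all 4 TG-labelled libraries (−0.45, SE 0.104, adjusted p = 0.00675).

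On the length-scaled level, Slc7a5 was 3.38 to 6.75 times Slc7a8 in the TG-labelled libraries and 0.692 to 1.10 times in the WT-labelled libraries. The summed length-scaled level of the light chains Slc7a5, Slc7a6, Slc7a7, Slc7a8 and Slc7a10 was 0.590 ± 0.112 of that of Slc3a2 in the TG-labelled libraries and 0.587 ± 0.0468 in the WT-labelled libraries (SD, n = 4 each). This sum leaves out Slc7a11, a light chain that also binds Slc3a2. Slc7a11 stood at 11.5 ± 1.01 CPM per kilobase in the TG-labelled libraries and 0.181 ± 0.0554 CPM per kilobase in the WT-labelled libraries. With it included, an alternative added after seeing the data, the ratio was 0.735 ± 0.130 in the TG-labelled libraries, from 0.613 to 0.892, and 0.593 ± 0.0460 in the WT-labelled libraries, from 0.526 to 0.623 (SD, n = 4 each). The ranges overlapped in both versions. The calls of Slc3a2 and Slc7a8 were lost with the endothelial and stromal covariate (1.04, adjusted p = 0.12, and −0.69, adjusted p = 0.198) and with the macrophage covariate (0.60, adjusted p = 0.283, and −0.58, adjusted p = 0.314). Slc7a5 kept its call with the endothelial and stromal covariate (2.44, adjusted p = 0.0282) and missed the threshold with the macrophage covariate (1.97, adjusted p = 0.103).

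The ASC carriers, which exchange alanine, serine, cysteine and threonine and, in the case of Slc1a5, glutamine, rose together. Slc1a4 (ENSMUSG00000020142) measured 64.9, 89.3, 69.9 and 65.6 CPM in the TG-labelled libraries and 11.5, 9.17, 17.2 and 15.7 CPM in the WT-labelled libraries. Expression was 5.41-fold higher (log2 fold change 2.44, SE 0.188, adjusted p = 3.88e-06), with a call in all 20 alternative settings, as for Slc7a1 and Slc7a3. Slc1a5 (ENSMUSG00000001918) measured 36.4, 43.7, 39.2 and 31.9 CPM against 12.3, 5.94, 10.9 and 5.62 CPM, TG-labelled before WT-labelled. It rose 4.35-fold without overlap (2.11, SE 0.242, adjusted p = 0.000157), although the WT-labelled libraries spread over a range of more than 2-fold. The call was lost with the endothelial and stromal covariate (1.32, adjusted p = 0.247) and with the macrophage covariate (1.20, adjusted p = 0.195). Slc1a4 made up 67.0% ± 1.79 of the length-scaled ASC level in the TG-labelled and 62.4% ± 10.2 in the WT-labelled libraries (SD, n = 4 each), and these shares overlapped.

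The promoters of 4 carriers that rose are shown because ATF4 binds, with a C/EBP partner, a composite element whose core is TGATGNAA. Each stretch runs from 160 bases before to 20 bases after an annotated RefSeq start (GRCm38.p6, minus strand in each case, read 5′ to 3′), and capitals mark matches to the core or to its reverse complement.
Slc1a4: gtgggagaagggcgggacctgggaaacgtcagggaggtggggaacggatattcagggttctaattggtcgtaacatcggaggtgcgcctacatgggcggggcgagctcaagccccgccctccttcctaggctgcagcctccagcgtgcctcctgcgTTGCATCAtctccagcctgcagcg
Slc7a7: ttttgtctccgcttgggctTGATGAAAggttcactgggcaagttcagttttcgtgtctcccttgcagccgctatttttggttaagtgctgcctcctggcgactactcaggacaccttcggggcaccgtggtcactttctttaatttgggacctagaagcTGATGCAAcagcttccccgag
Slc7a1: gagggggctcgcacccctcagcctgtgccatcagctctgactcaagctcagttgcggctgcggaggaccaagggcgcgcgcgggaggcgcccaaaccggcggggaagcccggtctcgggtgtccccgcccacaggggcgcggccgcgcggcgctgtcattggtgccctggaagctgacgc
Slc3a2: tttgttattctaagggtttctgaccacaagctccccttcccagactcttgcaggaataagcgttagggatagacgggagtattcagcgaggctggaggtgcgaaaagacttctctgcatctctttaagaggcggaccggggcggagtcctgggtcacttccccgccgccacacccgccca
They lie at chr11:20332694-20332873, chr14:54417925-54418104, chr5:148399885-148400064 and chr19:8713878-8714057, in that order. The core was searched on both strands of windows from 250 bases before to 50 bases after each start, without overlap between the matches found in the carriers. Of 25 carriers with a window, 2 held it, and 4.51% of 27025 genes with a window did. In Slc1a4 the match, on the opposite strand, spans the start from base −4 to base 4, where base 1 is the first of the transcript. In Slc7a7 the most upstream of 5 windows held matches at bases −141 to −134 and −1 to 7, and a second window, from a start further downstream, held the copy next to the first start again. The letters are not in these windows of Slc7a1, Slc3a2, Slc38a2, Slc6a9, Slc43a1, Slc38a5, Slc38a7 or Slc38a11, which also rose. Slc7a2, Slc7a3, Slc7a5, Slc38a1, Slc38a3, Slc1a5, Slc43a3, Slc6a6 and Slc6a15 had no entry in the table used.

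The SNAT family went both ways. Slc38a3 (ENSMUSG00000010064), the glutamine carrier SNAT3 of liver and kidney, had the largest rise of the neutral class. It measured 21.3, 20.5, 13.4 and 15.8 CPM in the TG-labelled libraries and 4.64, 1.01, 3.06 and 1.71 CPM in the WT-labelled libraries (6.82-fold, log2 fold change 2.76, SE 0.388, adjusted p = 0.000899). The groups did not overlap, and the WT-labelled values rest on between 22 and 96 reads. Slc38a2 (ENSMUSG00000022462), the carrier SNAT2 that is induced when amino acids run short, rose 1.33-fold, at 159.9, 172, 164 and 164 CPM in the TG-labelled libraries and 141, 109, 130.5 and 114 CPM in the WT-labelled libraries (0.41, SE 0.0909, adjusted p = 0.00463). Both calls were lost with the endothelial and stromal covariate (Slc38a3 1.79, Slc38a2 0.22) and with the macrophage covariate (2.13 and 0.19). That of Slc38a2 was also lost with TG replicates 2 and 3 left out (0.34, adjusted p = 0.0924). Rises were also called for Slc38a1 (0.71, SE 0.205, adjusted p = 0.0235), for the glutamine carrier Slc38a5 (0.49, SE 0.141, adjusted p = 0.023) and for the lysosomal glutamine carrier Slc38a7 (0.50, SE 0.145, adjusted p = 0.0232). Each of these 3 calls was lost when single libraries were left out. Slc38a1 was 0.59 without TG replicate 3, with losses also without TG replicates 1 and 4 and WT replicates 2 and 4. Slc38a5 was 0.45 without TG replicate 3 and lost its call without TG replicates 1 and 2 and WT replicates 2 and 4 as well. Slc38a7 was 0.39 without TG replicate 2 and lost its call without TG replicate 3 and WT replicates 1 and 2 as well.

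Slc38a4 (ENSMUSG00000022464), the SNAT4 carrier of liver and the most abundant SNAT here, was lower at 244, 362, 291 and 270.3 CPM in the TG-labelled libraries, against 416, 356, 411 and 464 CPM in the WT-labelled libraries. TG replicate 2 exceeded WT replicate 2, so the groups overlapped, yet the difference was called (log2 fold change −0.50, SE 0.117, adjusted p = 0.00772). Slc38a6, a little studied member, fell without overlap, with 7.02, 7.96, 8.52 and 6.32 CPM against 10.8, 12.9, 10.6 and 11.9 CPM, TG-labelled before WT-labelled (−0.63, SE 0.161, adjusted p = 0.0121). Of the length-scaled level of SNAT1 to SNAT5 (Slc38a1 to Slc38a5), Slc38a4 made up 65.1% ± 3.35 in the TG-labelled and 79.7% ± 2.95 in the WT-labelled libraries. Slc38a2 made up 17.96% ± 1.56 and 11.6% ± 1.15, Slc38a5 13.3% ± 1.58 and 8.17% ± 1.69, and Slc38a3 3.24% ± 0.760 and 0.399% ± 0.231 (SD, n = 4 each, TG-labelled before WT-labelled). The ranges of these 4 shares did not overlap between the groups.

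Carriers of other neutral amino acids rose, fell or missed the threshold. Slc6a9 (ENSMUSG00000028542), the glycine carrier GlyT1, measured 8.37, 9.42, 9.84 and 8.32 CPM in the TG-labelled libraries and 3.04, 2.72, 4.03 and 3.48 CPM in the WT-labelled libraries. It rose 2.71-fold with no overlap (log2 fold change 1.44, SE 0.197, adjusted p = 0.000133). The facilitated carriers of branched-chain amino acids moved in opposite directions. Slc43a1 (LAT3) measured 4.10, 3.47, 2.03 and 1.54 CPM against 0.676, 0.783, 0.972 and 1.04 CPM (1.68, SE 0.378, adjusted p = 0.00546), and Slc43a2 (LAT4) 50.5, 70.1, 74.5 and 80.8 CPM against 92.8, 103, 104 and 93.6 CPM (−0.51, SE 0.121, adjusted p = 0.00789), TG-labelled before WT-labelled. Neither pair of groups overlapped, and on the length-scaled level Slc43a2 remained far above Slc43a1, at 6.87 ± 1.302 and 0.487 ± 0.210 CPM per kilobase in the TG-labelled libraries and 9.79 ± 0.594 and 0.152 ± 0.0293 CPM per kilobase in the WT-labelled libraries (SD, n = 4 each). The taurine carrier Slc6a6 measured 153 ± 24.5 CPM and 151 ± 10.5 CPM (0.01, SE 0.108, adjusted p = 0.951), and the aromatic amino acid carrier Slc16a10 228 ± 34.1 CPM and 272 ± 15.3 CPM (−0.26, SE 0.104, adjusted p = 0.1; SD, n = 4 each, TG-labelled before WT-labelled). Slc16a10 was called lower in 3 of 20 alternative settings. Slc6a15, a carrier of branched-chain amino acids and proline, was 1.52-fold higher without overlap but missed the threshold (0.60, SE 0.221, adjusted p = 0.0702), and DESeq2 called it.

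Of the 4 lysosomal carriers, 1 was called, namely Slc38a7, a share near the 20.1% of all tested genes. Slc38a9, which reports arginine in the lysosome to the growth kinase mTORC1, lay between 16.5 and 18.1 CPM in the TG-labelled libraries and between 13.4 and 16.9 CPM in the WT-labelled libraries (log2 fold change 0.14, SE 0.125, adjusted p = 0.494). Slc36a1, a proton-coupled exporter of small amino acids, averaged 19.4 ± 2.83 CPM and 23.1 ± 1.44 CPM (−0.25, adjusted p = 0.193), and its relative Slc36a4 56.3 ± 7.58 CPM and 58.1 ± 5.98 CPM (−0.04, adjusted p = 0.834; SD, n = 4 each, TG-labelled before WT-labelled). The median log2 fold change of these 4 carriers was 0.05.

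The anionic carriers, which take up glutamate and aspartate, were low in all libraries and none was called. Slc1a3 (GLAST), known from astrocytes, measured 5.94, 2.22, 3.002 and 2.73 CPM in the TG-labelled libraries and 1.74, 2.35, 1.43 and 1.71 CPM in the WT-labelled libraries. The groups overlapped, and TG replicate 1 had the highest value (log2 fold change 0.93, SE 0.336, adjusted p = 0.0636). That library also held the most acinar, stromal, ductal, adipocyte and Schwann cell marker transcripts, the last at 82.9 CPM. DESeq2 called Slc1a3, as did edgeR without TG replicate 2 (1.10). Without TG replicate 1 the log2 fold change was 0.55 (adjusted p = 0.298 in edgeR), and with the acinar covariate 0.68 (adjusted p = 0.277). Slc1a2 (GLT-1) lay between 0.855 and 2.11 CPM in the TG-labelled and 0.507 and 1.41 CPM in the WT-labelled libraries, and Slc1a1 (EAAC1) between 0.221 and 0.594 CPM and 0.231 and 0.725 CPM. Slc1a1 had 5 to 15 reads per library, and no difference was called (−0.16, SE 0.628, adjusted p = 0.898).

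Among the 3 genes placed in no substrate class, Slc43a3 and Slc38a11 rose. Slc43a3, a relative of the LAT carriers that takes up purine bases, measured 63.1, 72.1, 65.4 and 40.6 CPM in the TG-labelled libraries and 24.1, 25.8, 32.6 and 22.1 CPM in the WT-labelled libraries (log2 fold change 1.20, SE 0.171, adjusted p = 0.000387). With the macrophage covariate its log2 fold change was 0.34 (adjusted p = 0.678) and with the endothelial and stromal covariate 0.67 (adjusted p = 0.521). Slc38a11 measured 8.80, 6.45, 8.17 and 8.03 CPM against 4.40, 3.55, 3.01 and 4.83 CPM, TG-labelled before WT-labelled (0.997, SE 0.21, adjusted p = 0.00355). Slc38a10, the third most abundant carrier per kilobase in both groups, averaged 342 ± 35.3 CPM in the TG-labelled and 348 ± 34.8 CPM in the WT-labelled libraries (SD, n = 4 each; −0.02, SE 0.0971, adjusted p = 0.9).

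**Figure D4:**
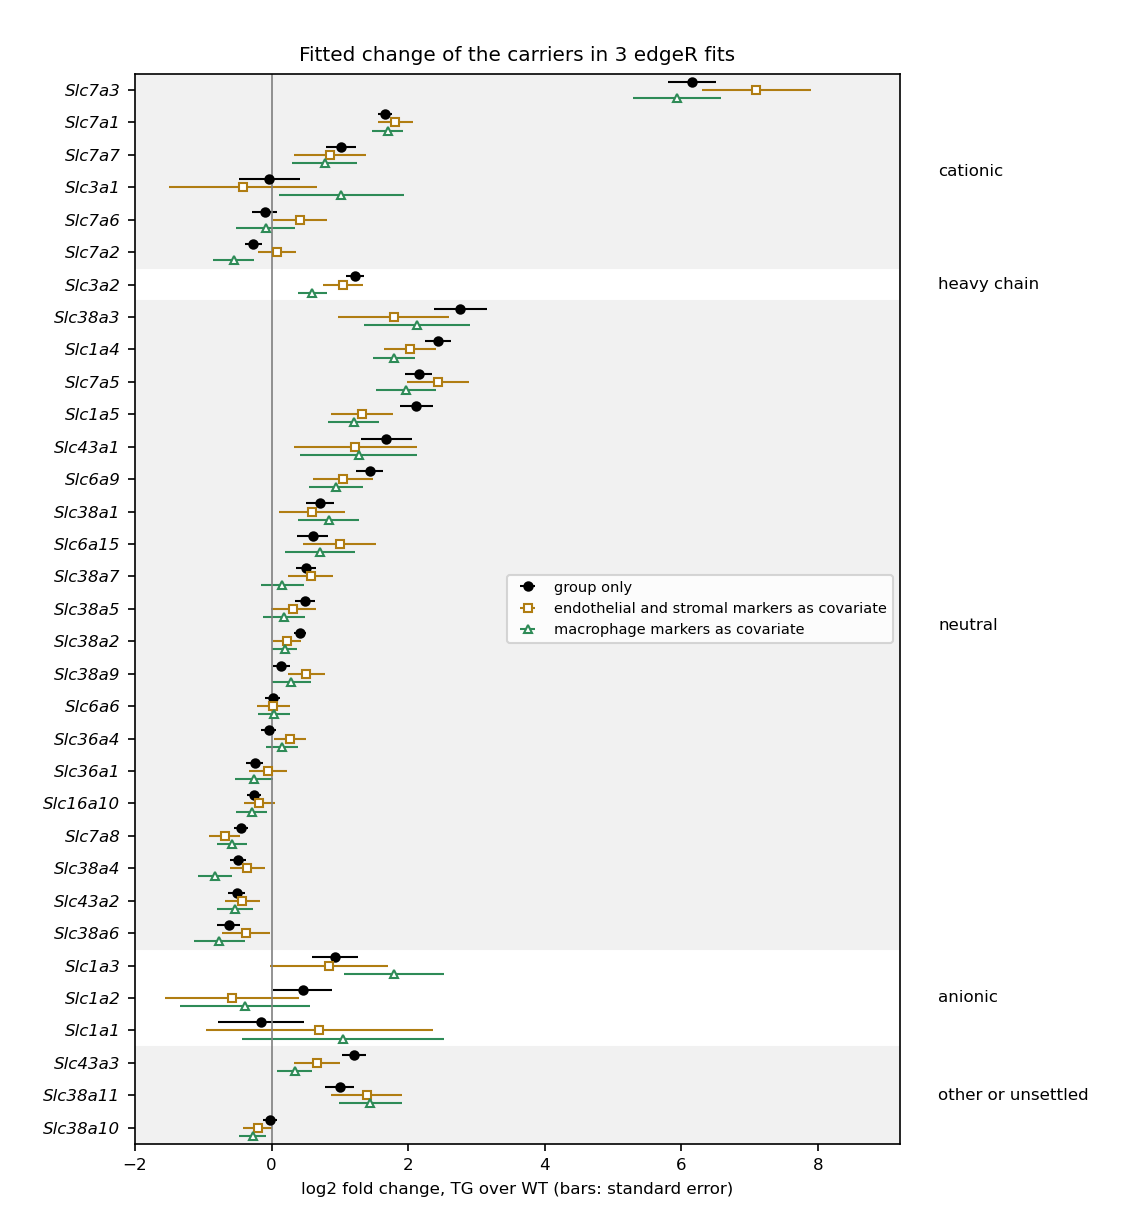
Log2 fold changes of TG-labelled over WT-labelled libraries for the 33 tested carriers, with standard errors, from the edgeR fit on group alone (filled circles) and from the fits with endothelial and stromal (squares) or macrophage (triangles) markers as a covariate. Slc7a3, Slc7a1 and Slc1a4 lie far right of 0 in all 3 fits, whereas Slc43a3 lies at 1.20, 0.67 and 0.34.

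Compared by substrate class, 3 of 6 cationic carriers were called higher and 0 lower. Of 20 tested neutral carriers 10 were called higher and 4 lower, and of 3 anionic carriers 0 were called in either direction. Among all tested genes 12.1% were called higher and 8.06% lower. With only 3 genes, 0 calls cannot set the anionic class apart from these shares. The median log2 fold changes of the classes were 0.49, 0.45 and 0.45, with ranges of −0.27 to 6.16, −0.63 to 2.76 and −0.16 to 0.93. No cationic carrier lay near its class median, which falls between Slc3a1 (−0.03) and Slc7a7 (1.017). Slc3a1 is a heavy chain, and without it the cationic median would be the value of Slc7a7. The closeness of the class medians therefore depends on where Slc3a1 is placed. The anionic median is the value of Slc1a2 alone (SE 0.434, adjusted p = 0.53 in edgeR). No difference between classes was tested. With the macrophage covariate the medians were 0.90, 0.18 and 1.04. The anionic median, over 3 genes, was 0.208 without WT replicate 2 and 0.244 without TG replicate 1. The summed level of the cationic class was 624 ± 101 CPM in the TG-labelled and 539 ± 64.6 CPM in the WT-labelled libraries, and that of the neutral class 1378 ± 149 CPM and 1313 ± 52.9 CPM (SD, n = 4 each). Both sums overlapped between the groups. The anionic sum was 5.36 ± 2.23 CPM in the TG-labelled and 3.35 ± 0.241 CPM in the WT-labelled libraries, and its TG-labelled values, from 3.87 to 8.64 CPM, all exceeded the WT-labelled ones.

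On the length-scaled level the order of the carriers also differed between the groups. In the TG-labelled libraries it began with Slc3a2 (80.7 ± 17.5 CPM per kilobase), Slc38a4 (68.5 ± 11.8), Slc38a10 (53.3 ± 5.49), Slc7a2 (45.4 ± 8.75), Slc7a5 (36.8 ± 9.67), Slc16a10 (31.0 ± 4.63) and Slc7a3 (30.0 ± 5.88). In the WT-labelled libraries it began with Slc38a4 (96.7 ± 10.4 CPM per kilobase), Slc7a2 (54.6 ± 6.91), Slc38a10 (54.2 ± 5.42), Slc16a10 (37.0 ± 2.08) and Slc3a2 (34.7 ± 3.79), SD, n = 4 in each group. Each neighbouring pair named here lay within the sum of its SDs, except Slc38a4 and Slc7a2, and Slc38a10 and Slc16a10, in the WT-labelled libraries. Slc7a3 stood at place 7 of 34 in the TG-labelled and at place 28 in the WT-labelled libraries, and Slc7a5 at places 5 and 12.

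Among the WT-labelled libraries, replicate 3 had the most endothelial (955 CPM) and stromal (2838 CPM) transcripts, where the other 3 had at most 625 and 1346 CPM. The same library also had the most macrophage (192 CPM) and acinar (14451 CPM) transcripts, where the other 3 had at most 164 and 14386 CPM. Its Slc7a3 (0.972 CPM), Slc7a1 (24.4 CPM) and Slc7a5 (32.1 CPM) lay within or below the range of the other WT-labelled libraries. Its Slc3a2 (142 CPM), Slc43a3 (32.6 CPM) and Slc1a4 (17.2 CPM) were the highest of the group, though under every TG-labelled library. Slc43a2 (104 CPM), which was called lower, also peaked there, as did Slc6a9 (4.03 CPM), which rose. So did Slc38a10 (394 CPM), Slc16a10 (283 CPM) and Slc6a6 (163 CPM), which were not called. The part of other cell types in these values was not tested. With TG replicate 1 and WT replicate 3 both left out, 14 carriers were called higher and 4 lower (10.9% and 5.96% of genes tested there). With TG replicates 2 and 3 left out, 11 were higher and 4 lower (5.62% and 4.38%).

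Other genes of amino acid transport and sensing were read from lists. These lists too were chosen with earlier results of these data known, so their shares beside all tested genes are descriptions. Of 31 other plasma membrane, vesicle and lysosomal amino acid carriers, 21 were tested, 2 were higher and 1 was lower, or 14.3% called against 20.1% of all tested genes. They were the cystine and glutamate exchanger Slc7a11 (159.7 ± 14.04 CPM in the TG-labelled and 2.52 ± 0.771 CPM in the WT-labelled libraries with SDs over 4 libraries, 5.98 on the log2 scale, SE 0.167, adjusted p = 7.71e-12), the creatine carrier Slc6a8 (0.49, SE 0.156, adjusted p = 0.036) and Slc7a14 (−0.31, SE 0.1, adjusted p = 0.0418). Of 11 mitochondrial amino acid carriers 0 were called by edgeR or by DESeq2, and 0 had an unadjusted p under 0.05 in either (median −0.03). Of 33 genes of lysosomal amino acid sensing and of mTORC1 itself, 1 was higher and 5 were lower (median −0.17), and these 18.2% are near the 20.1% of all tested genes. Sesn2, a leucine sensor, rose (1.20, SE 0.174, adjusted p = 0.000528), while Flcn (−0.45, SE 0.0857, adjusted p = 0.00179) and its partners Fnip2 (−0.46, SE 0.0851, adjusted p = 0.00142) and Fnip1 (−0.35, SE 0.104, adjusted p = 0.0265) fell. Sesn2 is counted again in the list that follows. Of 18 targets of the integrated stress response, 16 were higher and 0 lower (88.9% called, median 1.87), among them Asns, which makes asparagine, at 673 ± 57.8 CPM in the TG-labelled and 122 ± 10.01 CPM in the WT-labelled libraries (SD, n = 4 each; 2.46, SE 0.0965, adjusted p = 1.2e-10).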

How the data were processed

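RNA sequencing of islets gave 1 table of whole read counts per gene for each of 8 libraries, deposited by the authors without normalization. The submitters' processing notes list STAR 2.7.10a, HTSeq 0.11.3 and mm39. Whether counting used strand was not stated there, so overlapping and antisense genes are uncertain. Reads outside any gene (25.3% to 31.5% of each table) and ambiguous reads (3.74% to 4.36%) were left out. Symbols came from GENCODE vM21 and matched 52081 of 55414 identifiers. Exon lengths came from the same annotation, made for an earlier build, so no mm39 coordinates are given.

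After filterByExpr with a minimum count of 10, 20509 genes were scaled by TMM and compared by group in edgeR 4.0.16 (R 4.3.3) with its robust quasi-likelihood test, two-sided. Adjusted p-values are Benjamini-Hochberg over all tested genes, with calls under 0.05. The step was tested on simulated counts in which randomly chosen genes changed. These held no shift of cell types, so the simulation cannot show how the step behaves under such a shift. A count of 0 allows up to 3 reads, at most 0.182 CPM in these libraries, from counting error only. All 34 carriers, and up to 4 called genes with the lowest adjusted p per pathway list, could be named. Carriers, substrate classes and lists were chosen with earlier results of these data known. Alternatives were DESeq2 1.42.0, other scalings and filters, a replicate block, marker covariates and left-out libraries. Leaving out TG replicate 1 with WT replicate 3, or TG replicates 2 and 3, was added after seeing the data.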

Additional observations from a re-analysis of the deposited data

Results flagged for a closer look

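In 72 groups of 4 libraries, for single carriers and for class sums, 6 had a library set far apart from the other 3, where chance alone gives about 1 in 20. For Slc7a3 these were TG replicate 1, at 80.2 CPM against 122 to 126 CPM in the other TG-labelled libraries, and WT replicate 1, at 2.995 CPM against 0.972 to 1.22 CPM in the other WT-labelled libraries. Slc7a5 was at 82.7 CPM in TG replicate 1 and between 153 and 156 CPM in the other TG-labelled libraries. TG replicate 1 also held the most acinar transcripts (48250 CPM). With the acinar markers as a covariate, the log2 fold changes of Slc7a3 and Slc7a5 were 6.25 and 2.34, and both stayed called. The part of acinar transcripts in these values was not tested further. Slc3a2 reached 142 CPM in WT replicate 3, against 113 to 118 CPM in the rest of its group. Slc38a10 reached 394 CPM in TG replicate 2, against 319 to 330.2 CPM in the rest of its group, and Slc16a10 lay at 249.7 CPM in WT replicate 1, against 278 to 283 CPM. Without TG replicate 1 the log2 fold changes of Slc7a3 and Slc7a5 were 6.30 and 2.34, and both stayed called.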

How the results depend on the processing

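Over all tested genes, 2473 were called higher and 1652 lower. With the endothelial and stromal covariate the counts were 124 and 178 genes, with the macrophage covariate 102 and 131, and with TG replicates 2 and 3 left out 1267 and 987. Carriers called higher and lower numbered 16 and 4, but 4 and 0 with the endothelial and stromal covariate and 3 and 0 with the macrophage covariate. These covariates move with the group, and the cause of the losses was not tested further. Leaving out single libraries gave 13 to 16 carriers higher and 4 to 5 lower, against 1690 to 2621 and 1122 to 2131 genes. The cationic median of 0.49 became 0.64 with the endothelial and stromal covariate, 0.90 with the macrophage covariate and 0.67 without TG replicates 2 and 3. The neutral median of 0.45 became 0.18 with the macrophage covariate, 0.36 with the acinar covariate and 0.31 without TG replicates 2 and 3, and the anionic median of 0.45 became 1.04 with the macrophage covariate. On the forward strand alone, 1 carrier held the promoter core.

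Reversed directions were seen only for carriers that had not been called. With the endothelial and stromal covariate they were Slc7a2 (0.081), Slc7a6 (0.42), Slc1a1 (0.70), Slc1a2 (−0.58) and Slc36a4 (0.27), and with the macrophage covariate Slc3a1 (1.02), Slc1a1 (1.04), Slc1a2 (−0.39) and Slc36a4 (0.16). Slc36a4 was 0.069 with the acinar covariate, and Slc6a6 was −0.024 with upper-quartile scaling and −0.0026 with no filter. Slc38a10 was 0.048 without TG replicate 1 and WT replicate 3. Without TG replicates 2 and 3, Slc3a1 was 0.43, Slc1a1 0.13 and Slc6a6 −0.043. Leaving out single libraries gave −0.19 to 0.055 for Slc7a6, −0.38 to 0.15 for Slc3a1, −0.10 to 0.035 for Slc38a10, −0.39 to 0.016 for Slc1a1, −0.16 to 0.035 for Slc36a4 and −0.11 to 0.12 for Slc6a6.

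With the replicate number as a block, 2769 genes were called higher and 1904 lower, and 16 and 5 carriers. The carrier called with the block but not in the fit on group alone was Slc16a10 (−0.27, adjusted p = 0.0365). It was also called with upper-quartile scaling (adjusted p = 0.0439) and without TG replicate 4 (adjusted p = 0.0419). Same-numbered libraries deviated together with correlations of 0.105, 0.150, 0.019 and 0.123, so 3 of 4 pairs exceeded 0.1. TG replicates 2, 3 and 4 correlated best with their own number, and TG replicate 1 with WT replicate 3 (0.217). Since not every pair exceeded 0.1 and the labels give no shared litter or day, a pairing was not assumed, and the data leave it undecided.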
